A study of Mus musculus with 15 samples.

Results

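The 7 genes described here encode Fc receptors or their partners in mouse: Fcgr1, Fcgr2b, Fcgr3 and Fcgr4, which encode the classical receptors for immunoglobulin G, Fcer1g, which encodes their shared signalling chain, Fcrls, which encodes an Fc receptor-like protein, and Fcgrt, which encodes the heavy chain of the neonatal Fc receptor FcRn. They were taken by symbol from a table of 20610 genes, and all 7 were found. The table gives TPM, a transcript level scaled for length and to a common total of 1000000 in each library, so that levels of different genes can be set side by side. Cells had been separated magnetically from the cortex of wild-type (WT) male mice at postnatal day 28 (P28), with 5 polyA RNA libraries of microglia, 5 of astrocytes and 5 of neurons. All 3 groups share this genotype, sex, age and tissue, and none carried a transgene or received a treatment according to the labels. The labels do not tie libraries to animals or say whether animals were pooled, so every p-value measures the spread between these libraries. In bulk RNA, fewer cells of a type and less RNA per cell cannot be told apart.

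Fc receptors bind the constant part of antibodies. FcγRI, FcγRIII and FcγRIV, the products of Fcgr1, Fcgr3 and Fcgr4, signal through the γ chain encoded by Fcer1g, whose activation motif (ITAM) recruits the kinase Syk and can lead to phagocytosis and an oxidative burst. FcγRIIB, the product of Fcgr2b, carries an inhibitory motif (ITIM) of its own and recruits the phosphatase SHIP-1, encoded by Inpp5d. FcRn works differently: it pairs with β2-microglobulin, encoded by B2m, binds immunoglobulin G and albumin in acidic endosomes and returns them to the cell surface, and in brain it is known above all from endothelium and choroid plexus.

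Of the 7 genes, 4 lie close together. On the mm10 build (GENCODE vM21), Fcgr2b (ENSMUSG00000026656, chr1:170958617-170976547, minus strand), Fcgr4 (ENSMUSG00000059089, chr1:171018920-171029761, plus strand), Fcgr3 (ENSMUSG00000059498, chr1:171051174-171064935, minus strand) and Fcer1g (ENSMUSG00000058715, chr1:171229572-171234365, minus strand) span 275.7 kb. Fcgr1 (ENSMUSG00000015947, chr3:96282909-96293969) and Fcrls (ENSMUSG00000015852, chr3:87250758-87263738) both lie on the minus strand of chromosome 3, and Fcgrt (ENSMUSG00000003420, chr7:45092990-45103851) on the minus strand of chromosome 7. All 7 are annotated as protein coding.

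Fcgr2b and Fcgr3 share coding sequence, which bears on how reads were divided between an inhibitory and an activating receptor. The longest identical run is 129 bases, lies in exons 3 and 4 of both transcripts and is entirely coding. On the minus strand of mm10 it covers the exonic bases of chr1:170966674-170968081 in Fcgr2b and of chr1:171054167-171057792 in Fcgr3, with an intron between the exons in each gene. It is shown because a fragment that falls wholly inside it cannot be placed by sequence alone:
Fcgr2b and Fcgr3: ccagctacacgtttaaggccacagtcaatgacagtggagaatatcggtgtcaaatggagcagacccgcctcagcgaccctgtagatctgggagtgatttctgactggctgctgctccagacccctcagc
Of all 50-base stretches of the Fcgr3 transcript, 12.8% also occur in Fcgr2b. In the other direction, 4.75% of the 50-base stretches of Fcgr2b occur in Fcgr3, and 12.5% occur in at least 1 other gene. No stretch of 150 bases, the length of 1 read of a pair, is shared between Fcgr2b and Fcgr3. An untrimmed read of that length therefore cannot lie wholly inside a stretch shared by these 2 genes, while shorter reads and fragments can. How many did was not tested. Against all other genes, 3.15% of the 150-base stretches of Fcgr2b occur in at least 1. The other 5 members share no 50-base stretch with any gene.

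The regions just upstream of the starts were searched for GAGGAA and, on the other strand, TTCCTC, the core bound by PU.1, a transcription factor of myeloid cells encoded by Spi1. The motif was present in the 250 bases before a RefSeq start of 4 of the 7 genes (Fcgr1, Fcgr3, Fcgr4 and Fcrls) and was not found in these windows of Fcgr2b, Fcer1g and Fcgrt. The RefSeq starts used differ from the outer ends of the GENCODE genes: the Fcgr2b and Fcgr3 windows lie inside the gene spans given above, and 187 of the 250 bases of the Fcgr2b window and 136 of the Fcrls window are in GENCODE exons. Counted by window, it was in 5 of 8 member windows, since Fcgr3 has 2 listed starts, and in 23.3% of all 32851 windows of that length. The 100 bases before the start are printed for the 3 activating receptors, whose motifs lie nearest the start, and for Fcer1g and Fcgrt, which hold none. They are from RefSeq on GRCm38.p6, 5′ to 3′ along the gene, with the motif in capitals:
Fcgr1, chr3:96293970-96294069, minus strand: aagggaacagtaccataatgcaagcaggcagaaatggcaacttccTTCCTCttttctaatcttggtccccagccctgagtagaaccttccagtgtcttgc
Fcgr3, chr1:171059395-171059494, minus strand: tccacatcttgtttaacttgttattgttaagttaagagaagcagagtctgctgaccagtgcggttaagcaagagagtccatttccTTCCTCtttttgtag
Fcgr4, chr1:171018826-171018925, plus strand: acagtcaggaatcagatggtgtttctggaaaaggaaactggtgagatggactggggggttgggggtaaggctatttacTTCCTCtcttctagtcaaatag
Fcer1g, chr1:171234350-171234449, minus strand: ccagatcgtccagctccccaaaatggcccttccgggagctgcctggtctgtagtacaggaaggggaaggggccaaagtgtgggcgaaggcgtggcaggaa
Fcgrt, chr7:45103823-45103922, minus strand: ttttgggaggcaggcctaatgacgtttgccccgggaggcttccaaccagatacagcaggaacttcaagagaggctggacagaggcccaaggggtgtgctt
The first base of the motif stood 55 bases before the start in Fcgr1, 15 before the start shown in Fcgr3, 22 in Fcgr4 and 144 in Fcrls. Fcgr1 and Fcgr3 carry it within the same run of 10 bases, TTCCTTCCTC. A match of letters is a description of the window and not evidence of binding.

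The isolates were compared with their defining markers before the receptors were read. The summed level of 20 microglia markers was 85569 to 136395 TPM in microglia libraries, 213 to 296 TPM in astrocyte libraries and 114 to 198 TPM in libraries labelled neuron, and no marker was at 0 throughout a group. The astrocyte markers averaged 24961 TPM in astrocyte libraries. The labels and markers parted in the third group: 12 neuron markers summed to 70.0 ± 47.4 TPM in microglia libraries, 203 ± 59.1 TPM in astrocyte libraries and 1190.2 ± 380 TPM in libraries labelled neuron (SD, n = 5 each), while 15 endothelial markers summed to 606 ± 194, 2554 ± 270 and 33021 ± 5019 TPM in the same groups. Of these endothelial sums, Ly6c1 alone held 428, 1422 and 23317 TPM in the same order. All 15 endothelial markers were called higher in libraries labelled neuron than in microglia, and all 15 higher than in astrocytes. The libraries of the third group are therefore called neuron-labelled throughout. Microglia libraries 1 and 2 also stood apart, with 69938 and 52216 TPM of summed oligodendrocyte markers, against 255 to 8205 TPM in microglia libraries 3 to 5 and 469 to 3831 TPM in astrocyte libraries. Neuron-labelled libraries 1 and 2 stood apart in the same way, with 8493 and 10389 TPM, against 221, 248 and 1651 TPM in neuron-labelled libraries 3 to 5. Depth cannot be read from TPM; the labels state an average of 30000000 reads per library.

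Of the 7 genes, 6 were microglial, and the exception was Fcgrt. Together the 7 made up 1.39 ± 0.215% of all TPM in microglia libraries, 0.0246 ± 0.00193% in astrocyte libraries and 0.0461 ± 0.0101% in neuron-labelled libraries (SD, n = 5 each). In microglia, Fcer1g held rank 20, Fcgr3 rank 28 and Fcrls rank 41 among the 20610 genes ordered by mean TPM, while Fcgr4 held rank 3112. The order of mean levels in microglia was Fcer1g, Fcgr3, Fcrls, Fcgr2b, Fcgr1, Fcgrt and Fcgr4. Neighbours in that order did not overlap between libraries, except Fcgr3 with Fcrls and Fcgr1 with Fcgrt. The spread between microglia libraries was 13.7% of the mean for Fcer1g and 28.3% for Fcgr1, with the other 5 members in between.

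**Figure D1:**
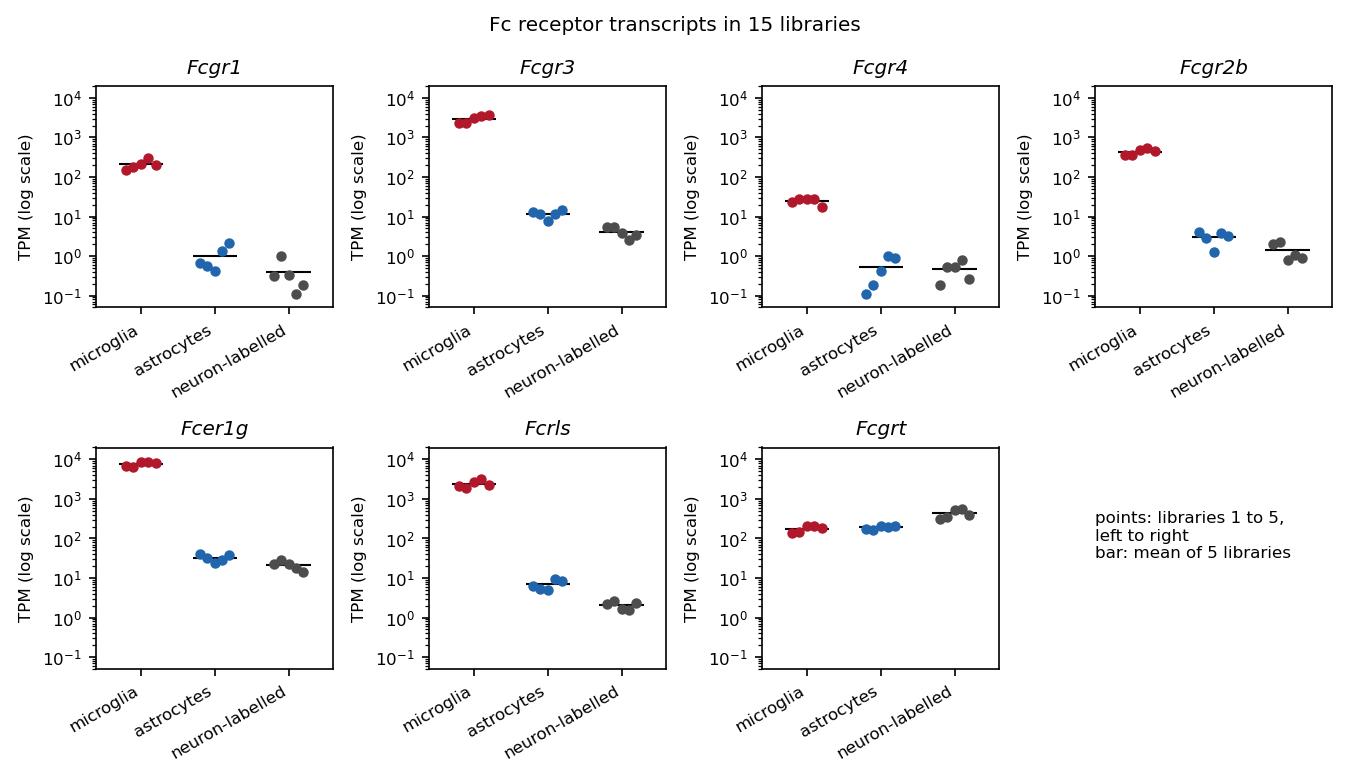
TPM of the 7 genes in each of the 15 libraries on a log axis, with microglia, astrocyte and neuron-labelled libraries side by side and a bar at each mean. Microglia libraries lie above both other groups for every gene except Fcgrt, whose mean is 175 TPM in microglia, 191 TPM in astrocytes and 431 TPM in neuron-labelled libraries.

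Fcgr3 encodes the low-affinity activating receptor FcγRIII and was the most abundant of the 4 Fcgr genes. Its level in microglia libraries 1 to 5 was 2330, 2355, 3025, 3419 and 3788 TPM. Its level in astrocyte libraries was 13.2, 11.4, 7.76, 11.4 and 14.7 TPM, and in neuron-labelled libraries 5.28, 5.40, 3.78, 2.62 and 3.37 TPM. All 5 microglia libraries stood above all others, and all 5 astrocyte libraries stood above all 5 neuron-labelled ones. Mean levels were 2983 ± 644, 11.7 ± 2.59 and 4.09 ± 1.22 TPM in microglia, astrocytes and neuron-labelled libraries (SD, n = 5 each), so that microglia had 255 times the astrocyte mean and 729 times the neuron-labelled mean. On the log2(TPM + 1) scale, which understates changes of low genes, the difference was 7.88 for microglia minus astrocytes (limma, adjusted p = 1.23e-15) and 9.20 for microglia minus neuron-labelled libraries (adjusted p = 1.1e-16).

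Fcgr1 encodes the high-affinity receptor FcγRI. It reached 148, 176, 216, 305 and 205 TPM in the microglia libraries, against 0.66, 0.55, 0.41, 1.31 and 2.13 TPM in the astrocyte libraries and 0.32, 1.01, 0.34, 0.11 and 0.18 TPM in the neuron-labelled libraries. Microglia stood clear of both other groups, which overlapped each other at about the level where 1 TPM was required for testing. The microglia mean was 210.1 ± 59.4 TPM (SD, n = 5), 208 times the astrocyte mean and 536 times the neuron-labelled mean. The log2 difference was 6.74 for microglia minus astrocytes (limma, adjusted p = 7.21e-14) and 7.24 for microglia minus neuron-labelled libraries (adjusted p = 3.41e-14). Fcgr1 could be tested only because it was high in microglia, so these p-values add no separate support.

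Fcgr4 encodes FcγRIV, the activating receptor that binds certain immunoglobulin G subclasses in mouse, and was by far the lowest of the 6 in microglia. Its values were 22.9, 26.9, 28.2, 28.2 and 17.6 TPM in microglia libraries, 0.11, 0.18, 0.41, 1.02 and 0.89 TPM in astrocyte libraries and 0.19, 0.54, 0.53, 0.80 and 0.26 TPM in neuron-labelled libraries. The microglia mean of 24.8 ± 4.57 TPM was 47.4 times the astrocyte mean of 0.522 ± 0.413 TPM and 53.4 times the neuron-labelled mean of 0.464 ± 0.245 TPM (SD, n = 5 each). The log2 difference was 4.10 for microglia minus astrocytes (limma, adjusted p = 3.67e-12) and 4.13 for microglia minus neuron-labelled libraries (adjusted p = 4.66e-12). Fcgr1 and Fcgr4 passed the requirement of 1 TPM in 5 libraries only through the microglia libraries, so that they could be tested only because they were high there. The other 5 members passed it without the microglia libraries.

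Fcgr2b, which encodes the inhibitory receptor, was measured at 351, 354, 482, 537 and 463 TPM in microglia libraries. It had 4.14, 2.90, 1.29, 3.82 and 3.16 TPM in astrocyte libraries and 2.04, 2.21, 0.78, 1.04 and 0.89 TPM in neuron-labelled libraries. Microglia libraries again stood above all others, and the other groups overlapped. The microglia mean was 437 ± 82.0 TPM (SD, n = 5), 143 times the astrocyte mean and 314 times the neuron-labelled mean, with log2 differences of 6.79 (limma, adjusted p = 3.1e-14) and 7.54 (adjusted p = 9.06e-15).

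The balance among the 4 receptors was similar from one microglia library to the next. Fcgr3 made up 81.7, 80.9, 80.6, 79.7 and 84.7% of their summed TPM in microglia libraries, Fcgr2b 12.3, 12.2, 12.8, 12.5 and 10.4%, Fcgr1 5.74 ± 0.953% and Fcgr4 0.706 ± 0.20% (SD, n = 5). By mean level, Fcgr3 had 6.82 times the TPM of Fcgr2b, 14.2 times that of Fcgr1 and 120.5 times that of Fcgr4. The inhibitory receptor over the 3 activating ones was 0.137 ± 0.0125 in microglia, 0.228 ± 0.0626 in astrocytes and 0.273 ± 0.0732 in neuron-labelled libraries. The 4 genes summed to 3656 ± 755 TPM in microglia, 16.3 ± 4.15 TPM in astrocytes and 6.34 ± 2.05 TPM in neuron-labelled libraries. The ratio outside microglia therefore rests on far lower levels, with Fcgr2b at 1.29 to 4.14 TPM in astrocytes and 0.78 to 2.21 TPM in neuron-labelled libraries. Since Fcgr2b and Fcgr3 share sequence, the ratio also depends on how any reads common to both were divided.

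Fcer1g, the γ chain without which the activating receptors are poorly held at the surface in mouse, was the highest of the 7. It had 6715, 6361, 8778, 8352 and 7916 TPM in microglia libraries, against 40.7, 33.0, 23.6, 28.2 and 38.2 TPM in astrocyte libraries and 23.0, 28.5, 22.9, 18.3 and 14.4 TPM in neuron-labelled libraries. Microglia did not overlap with either group, and astrocyte and neuron-labelled libraries overlapped. The microglia mean of 7624 ± 1045 TPM (SD, n = 5) was 233 times the astrocyte mean and 356 times the neuron-labelled mean, with log2 differences of 7.84 (limma, adjusted p = 4.42e-16) and 8.43 (adjusted p = 1.1e-16). It exceeded the sum of the 3 activating receptors 2.41 ± 0.309 times in microglia libraries. The γ chain also followed Tyrobp, which encodes DAP12, the other ITAM adaptor of microglia: Fcer1g over Tyrobp was 0.504, 0.502, 0.475, 0.467 and 0.468 in the microglia libraries. The same ratio averaged 0.483 ± 0.0183 in microglia, 0.501 ± 0.0540 in astrocytes and 0.481 ± 0.0914 in neuron-labelled libraries (SD, n = 5 each). Tyrobp itself averaged 15853 ± 2675 TPM in microglia and differed by 7.91 from astrocytes (limma, adjusted p = 2.32e-16) and by 8.44 from neuron-labelled libraries (adjusted p = 4.95e-17) on the log2 scale.

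Fcrls encodes an Fc receptor-like protein used as a marker of mouse microglia. Microglia libraries held 2148, 1935, 2686, 3234 and 2229 TPM. Astrocyte libraries held 6.36, 5.13, 4.93, 9.36 and 8.60 TPM, and neuron-labelled libraries 2.17, 2.6, 1.6, 1.58 and 2.36 TPM. The 3 groups did not overlap, with microglia highest and neuron-labelled libraries lowest. The mean of 2446 ± 519 TPM in microglia (SD, n = 5) was 356 times the astrocyte mean and 1186 times the neuron-labelled mean, the widest ratios of the 7 genes. The log2 differences were 8.29 (limma, adjusted p = 4.42e-16) and 9.63 (adjusted p = 4.95e-17).

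Against both other groups, then, the same 6 genes were called higher in microglia at an adjusted p below 0.05 and a log2 difference of at least 1. Of the 5 members that passed the filter without the microglia libraries, 4 were called higher against each group, and the 2 others, Fcgr1 and Fcgr4, could be tested only because they were high in microglia. Over all 13351 tested genes, 9.74% were called higher in microglia than in neuron-labelled libraries and 10.2% higher than in astrocytes. Libraries did not overlap for the same 6 members, with microglia higher, as for 12.1% of tested genes against neuron-labelled libraries and 12.5% against astrocytes. The median log2 difference of all tested genes was -0.48 for microglia minus neuron-labelled libraries and -0.57 for microglia minus astrocytes, and rescaling libraries by median-of-ratios shifted these medians by 0.51 and 0.54. None of the 6 calls changed under any of the 27 alternatives, and without microglia libraries 1 and 2 the log2 differences were 4.09 to 8.45 against astrocytes and 4.12 to 9.79 against neuron-labelled libraries.

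The low levels outside microglia were set against those of microglia markers in the same libraries. As a percent of the microglia mean, Fcer1g stood at 0.429% in astrocytes and 0.281% in neuron-labelled libraries, Fcgr3 at 0.392 and 0.137%, Fcgr2b at 0.70 and 0.318%, Fcgr1 at 0.482 and 0.187% and Fcrls at 0.281 and 0.0843%. The 20 microglia markers summed stood at 0.222% in astrocytes and 0.130% in neuron-labelled libraries. Single markers ranged between 0.0552% for Selplg and 14.8% for Sall1 in astrocytes, with a median of 0.215%, and between 0.0623% for P2ry13 and 4.06% for Sall1 in neuron-labelled libraries, with a median of 0.101%. Fcer1g lay above 15 of the 20 markers in astrocytes and above 16 of 20 in neuron-labelled libraries. Fcgr4 stood at 2.11 and 1.87%, above every marker except Sall1. Its level there was, however, under 1 TPM in 4 of 5 astrocyte libraries and in all 5 neuron-labelled ones. What part of these levels comes from microglial RNA in the other isolates was not tested.

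**Figure D2:**
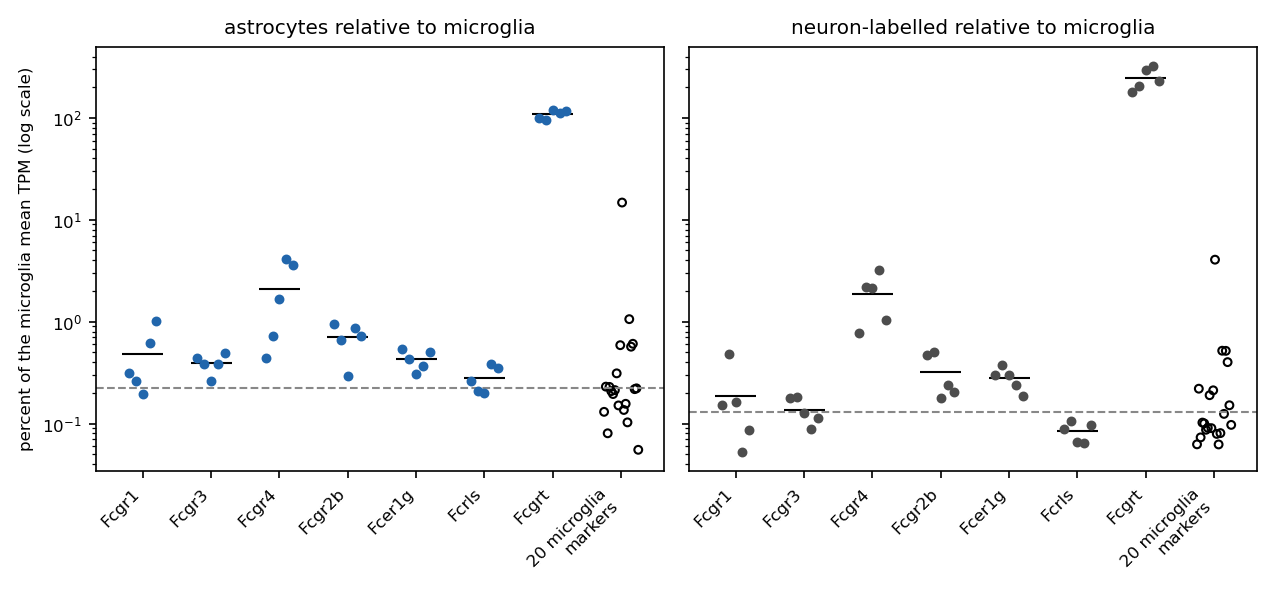
Mean level in astrocyte and in neuron-labelled libraries as a percent of the mean in microglia, on a log axis, with a point per library and a bar at the mean for each member, an open circle for each of the 20 microglia markers and a dashed line for these markers summed (0.222% and 0.130%). The mean of every member except Fcgrt (109 and 246%) lies within the range that the single markers cover. The top of that range is Sall1 alone (14.8 and 4.06%), and Fcgr4 (2.11 and 1.87%) lies above every other marker.

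Between astrocytes and neuron-labelled libraries, Fcgr3 and Fcrls were called higher in astrocytes, Fcgrt was called lower, and 4 members were not called. The log2 difference for astrocytes minus neuron-labelled libraries was 1.33 for Fcgr3 (limma, adjusted p = 1.59e-05) and 1.34 for Fcrls (adjusted p = 6.93e-06). Fcer1g at 0.60 (adjusted p = 0.00814) and Fcgr2b at 0.76 (adjusted p = 0.00938) fell short of the required size, and Fcgr1 at 0.50 (adjusted p = 0.0895) missed the p threshold. Fcgr4 differed by 0.03, with a 95% interval of -0.39 to 0.45 (adjusted p = 0.91), and its sign turned under several alternatives. Of all tested genes, 12.7% were called higher and 12.9% lower in astrocytes, and the libraries did not overlap for 20.2% in the higher and 18.8% in the lower direction. With a pseudocount of 0.1, Fcgr1 at 1.21 (adjusted p = 0.0266) and Fcgr2b at 1.10 (adjusted p = 0.00723) were also called higher. Microglia markers leaned the same way: 5 of the 20 were called higher in astrocytes, with a median log2 difference of 0.69 over the 20. Their part in the Fcgr3 and Fcrls differences was not tested.

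Fcgrt had a pattern of its own, being present in all 15 libraries and highest in the neuron-labelled ones. It had 135, 146, 210, 201 and 183 TPM in microglia libraries, 177, 166, 211, 195 and 205 TPM in astrocyte libraries and 316, 358, 516, 563 and 402 TPM in neuron-labelled libraries. Every neuron-labelled library stood above every other library, and microglia and astrocytes overlapped. The lowest neuron-labelled libraries were 1 and 2, those with more oligodendrocyte markers, whose part in the level was not tested. Means were 175 ± 33.3 TPM in microglia, 191 ± 19.1 TPM in astrocytes and 431 ± 105 TPM in neuron-labelled libraries (SD, n = 5 each). Microglia minus neuron-labelled libraries gave -1.28 on the log2 scale, with a 95% interval of -1.63 to -0.94 (limma, adjusted p = 1.89e-06), where 29.5% of all tested genes were called lower and 42.3% lay lower without overlap. Astrocytes minus neuron-labelled libraries gave -1.14 (limma, adjusted p = 1.38e-05). Microglia minus astrocytes gave -0.14, with an interval of -0.49 to 0.21 (adjusted p = 0.46), so that no difference was called and the data allow one between these bounds. Of all tested genes, 32.3% were called lower in microglia than in astrocytes and 45.9% lay lower without overlap.

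The Fcgrt differences from microglia depended on the scaling between libraries. Under median-of-ratios scaling, microglia minus neuron-labelled libraries was -0.67 (adjusted p = 0.000132) and under quantile normalization -0.94 (adjusted p = 9.27e-06), both short of the required size. Microglia minus astrocytes turned to 0.55 under median-of-ratios scaling (adjusted p = 0.000756), to 0.17 under quantile normalization (adjusted p = 0.26) and to 0.059 without microglia libraries 1 and 2 (adjusted p = 0.771). Without all libraries numbered 1 and 2, Fcgrt was at -1.30 for microglia minus neuron-labelled libraries and -1.26 for astrocytes minus neuron-labelled libraries, both still called lower. Endothelial markers were highest in the same group as Fcgrt: all 15 of that list were called lower in microglia than in neuron-labelled libraries. Against astrocytes, 12 of the 15 were called lower in microglia, with a median log2 difference of -1.81, whereas Fcgrt was not called. The endothelial sum was 380 to 794 TPM in microglia, 2077 to 2721 TPM in astrocytes and 28446 to 41232 TPM in neuron-labelled libraries. The sum of 9 mural cell markers was 148 ± 53.2, 1868 ± 289 and 3445 ± 944 TPM in microglia, astrocytes and neuron-labelled libraries. Fcgrt over the endothelial sum, of which Ly6c1 was the largest part, was not constant. Its level equalled 31.6% of that sum in microglia, 7.49% in astrocytes and 1.31% in neuron-labelled libraries. The part of endothelial RNA in the Fcgrt differences was not tested.

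The light chain of FcRn ran in another order. B2m, which also serves MHC class I, had 9155, 8732, 12030.0, 10839 and 8793 TPM in microglia libraries, 927, 946, 814, 799.5 and 805 TPM in astrocyte libraries and 2782, 2958, 3216, 2619 and 2028 TPM in neuron-labelled libraries. The groups did not overlap, with microglia highest and astrocytes lowest. The log2 difference was 3.52 for microglia minus astrocytes (limma, adjusted p = 2.12e-13), 1.87 for microglia minus neuron-labelled libraries (adjusted p = 1.5e-09) and -1.65 for astrocytes minus neuron-labelled libraries (adjusted p = 1.8e-08). B2m exceeded Fcgrt 57.4 ± 7.42 times in microglia, 4.57 ± 0.850 times in astrocytes and 6.60 ± 1.87 times in neuron-labelled libraries (SD, n = 5 each).

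**Figure D3:**
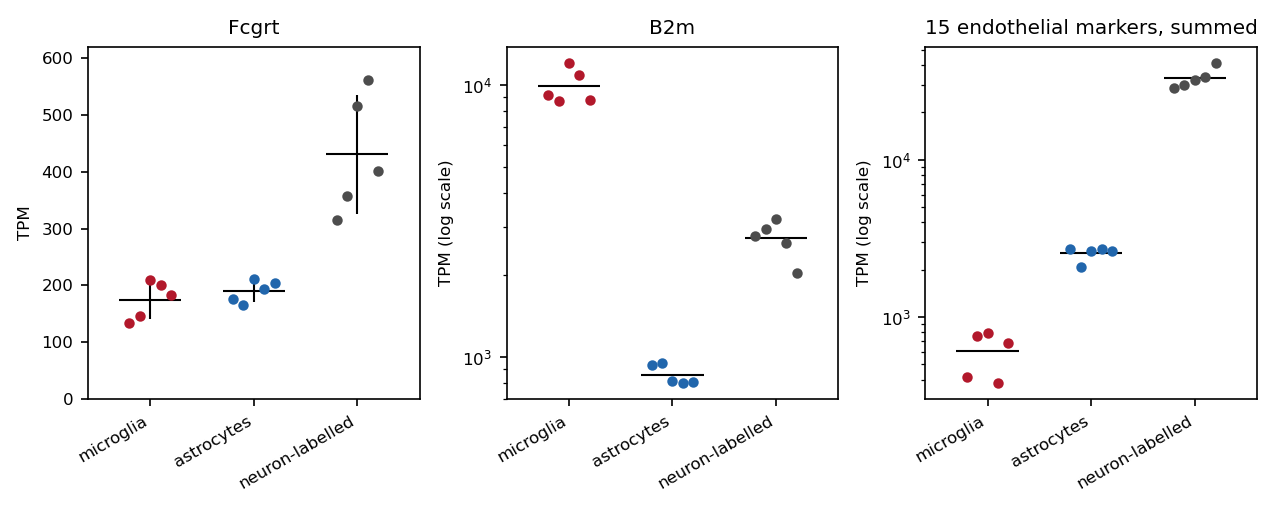
Level of Fcgrt and of its partner gene B2m in TPM and the summed TPM of 15 endothelial markers in each library, by group, with a bar at the mean; the Fcgrt axis is linear, with a line for the SD, and the other axes are logarithmic. Fcgrt is highest in the 5 neuron-labelled libraries (316 to 563 TPM), whereas B2m is highest in the 5 microglia libraries (8732 to 12030.0 TPM) and lowest in astrocytes. Ly6c1 is the largest part of the endothelial sum.

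Within microglia, libraries 1 and 2, rich in oligodendrocyte markers, were the lowest for every member except Fcgr4. Fcgr3 averaged 2343 TPM in libraries 1 and 2 and 3411 TPM in libraries 3 to 5, Fcer1g 6538 and 8348 TPM, Fcrls 2041 and 2716 TPM, Fcgr2b 353 and 494 TPM, Fcgr1 162 and 242 TPM and Fcgrt 140.3 and 198 TPM. Fcgr4 showed no such split, at 25.0 and 24.6 TPM. Taken over the summed microglia markers of the same library, the spread between libraries was 5.34% of the mean for Fcgr3 and 6.94% for Fcgr2b, in place of 21.6 and 18.8% for TPM. It was 15.5% in place of 28.3% for Fcgr1, 13.4% in place of 21.2% for Fcrls, 11.5% in place of 19.0% for Fcgrt and 11.4% in place of 13.7% for Fcer1g. For Fcgr4 it was wider, at 29.2% in place of 18.4%. The part of oligodendrocyte RNA in these levels was not tested.

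**Figure D4:**
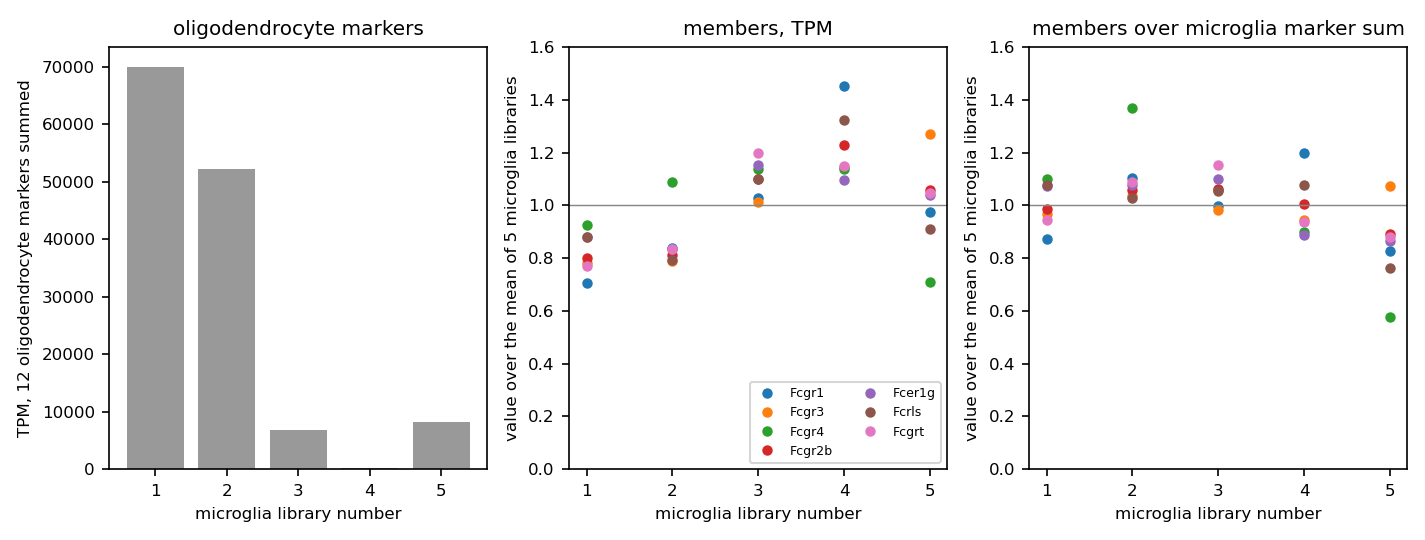
The 5 microglia libraries by number: summed TPM of 12 oligodendrocyte markers (bars), TPM of each of the 7 genes over its own mean, and its level over the summed microglia markers, again over its own mean. Libraries 1 and 2, with 69938 and 52216 TPM of oligodendrocyte markers, lie below the mean for 6 of the 7 genes in TPM, while Fcgr4 is above it in library 2.

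Other immune cells were also read in the microglia libraries, since they carry Fc receptors too. Summed levels of the 9 border macrophage markers were 1512 ± 282 TPM in microglia, 64.8 ± 11.1 TPM in astrocytes and 58.1 ± 11.6 TPM in neuron-labelled libraries. Pf4 alone held 1003, 38.4 and 32.9 TPM of these sums in the same order. The 11 monocyte and neutrophil markers summed to 851 ± 284, 18.9 ± 10.2 and 128 ± 28.4 TPM in these groups. Of these sums, S100a9 held 405, 4.09 and 10.3 TPM, S100a8 272, 2.79 and 8.57 TPM, and Ly6c2 27.6, 4.33 and 101.9 TPM. Of the 10 tested markers of that list, 8 were called higher in microglia than in neuron-labelled libraries and 1, Ly6c2, lower. Among the 5 that passed the filter without the microglia libraries, 4 were higher and 1 lower. Over all tested genes, 9.74% were called higher and 29.5% lower in this comparison. The 10 lymphocyte markers summed to 139 ± 38.8, 7.51 ± 1.98 and 53.6 ± 28 TPM in the same groups. Within the lymphocyte sum in microglia, Cd79b, known from B cells, stood at 67.3 ± 21.3 TPM, and Gzma and Nkg7, known from cytotoxic lymphocytes, at 37.0 ± 14.6 and 29.4 ± 11.9 TPM. Ms4a1, also known from B cells, was at 0.064 TPM, and Cd3e, known from T cells, at 0.47 TPM. These 5 genes and Pf4, S100a9, S100a8 and Ly6c2 were picked after their values were seen. The part of these cells in the receptor levels was not tested.

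The genes whose pattern over the 15 libraries was most like each member were found by Pearson correlation of log2(TPM + 1). The 15 libraries fall into 3 groups, so that these values describe mostly the groups and carry no test. Fcgr3 was nearest to C1qc (0.9993), C1qb and C1qa, the genes of complement C1q. Fcer1g was nearest to Tyrobp (0.9990), Ctss and Ly86, and Fcrls to Fcgr3 (0.9981), C1qc and Lair1. Fcgr1 was nearest to Cd33 (0.9985), Ly86 and Csf1r, Fcgr2b to Ms4a6d (0.9984), Ctss and C1qc, and Fcgr4 to Cd84 (0.9942), Lilra5 and Timd4. Among the 6 microglial members the 15 pairs ranged between 0.977 and 0.998. Fcgrt was nearest to Mis18a (0.9825), Phactr2 (0.9794) and Esyt1 (0.9759), and its correlation with the other 6 members ranged between -0.635 and -0.510.

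Genes outside the 7 were read from lists of the pathway, each given by its counts beside the share of all tested genes above. Many of these genes passed the filter only through microglia, as Fcgr1 and Fcgr4 did. Of 30 genes of activating signalling, 28 were tested, and 20 were called higher and 1 lower in microglia than in neuron-labelled libraries, with a median log2 difference of 3.14. Against astrocytes, 19 were higher and 2 lower, with a median of 2.99. Both medians include the genes that passed the filter only through microglia. Among the 17 that passed it without the microglia libraries, 9 were higher and 1 lower against neuron-labelled libraries, and 8 higher and 2 lower against astrocytes. The exchange factor Vav1 was higher by 5.53 against neuron-labelled libraries and by 5.56 against astrocytes. Syk, the kinase bound by the γ chain, had 7.10 to 12.8 TPM in microglia, 0.15 to 0.70 TPM in astrocytes and 0.15 to 0.33 TPM in neuron-labelled libraries. Vav1 and Syk passed the filter only through microglia, and their levels are given as a description. Plcg1 was lower in microglia than in neuron-labelled libraries, by -1.19, and Vav3 and Src lower than in astrocytes, by -1.76 and -1.45.

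The list of inhibitory signalling genes holds Inpp5d, whose product FcγRIIB recruits, and is not limited to partners of FcγRIIB. Of 15 tested genes, 11 were called higher and none lower against neuron-labelled libraries, with a median of 2.99, and 12 higher and none lower against astrocytes, with a median of 2.27. Both medians include the genes that passed the filter only through microglia. Among the 11 that passed it without microglia, the counts were 7 and 8 higher. Inpp5d averaged 304 ± 68.3 TPM in microglia, 3.27 ± 1.17 TPM in astrocytes and 8.25 ± 5.04 TPM in neuron-labelled libraries (SD, n = 5 each), with log2 differences of 6.17 against astrocytes (limma, adjusted p = 3.74e-11) and 5.25 against neuron-labelled libraries (adjusted p = 4.61e-10). Ptpn6, which encodes the phosphatase SHP-1, averaged 190.4 ± 51.9, 1.79 ± 0.617 and 7.32 ± 7.15 TPM in microglia, astrocytes and neuron-labelled libraries, and differed by 6.08 against astrocytes (adjusted p = 1.13e-09) and by 4.97 against neuron-labelled libraries (adjusted p = 2.15e-08). For astrocytes minus neuron-labelled libraries, Sirpa (3.20) and Pag1 (1.04) were called higher and Ptpn11 (-1.18) and Ptpn6 (-1.11, adjusted p = 0.0442) lower. With the replicate block Ptpn6 was no longer called (adjusted p = 0.0612). The 2 higher calls fell to 1 without astrocyte library 1, 3 or 4 or neuron-labelled library 1 or 2. The 2 lower calls fell to 1 without microglia library 3 or 5, astrocyte library 1, 2, 4 or 5 or neuron-labelled library 1 or 2.

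Of 16 listed genes for the other ITAM adaptors and the receptors that pair with them, 7 were tested, and 4 of these passed the filter without the microglia libraries. Of 7 genes of the phagocyte oxidase, 7 were tested and 3 passed it without them. Those 4 and 3 genes were called higher in microglia against both other groups. So were the rest, which could be tested only because they were high in microglia. The list medians, which include the rest, were 4.43 against neuron-labelled libraries and 5.82 against astrocytes for the adaptors, and 4.32 and 4.90 for the oxidase. Trem2, a lipid-binding receptor that pairs with DAP12, differed by 9.55 against neuron-labelled libraries and by 8.75 against astrocytes, and Ncf1, an oxidase subunit that passed the filter only through microglia, by 6.77 and 6.22. Rac2, which stands in the oxidase list and the activating list, differed by 4.32 and 5.71. For astrocytes minus neuron-labelled libraries Rac2 was called lower at -1.39. That call was lost without neuron-labelled library 4, which held the group's highest level of 16.7 TPM against a median of 3.14 TPM.

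The recycling genes that serve FcRn showed no common direction. Of 14 tested, 1 was called higher (B2m) and 3 lower in microglia than in neuron-labelled libraries (Rab11fip1 at -2.02, Rab4a at -1.41 and Myo5b at -1.01, with libraries that overlap), with a median of -0.49, close to the -0.48 of all tested genes. Against astrocytes, B2m and Rab11fip5 (1.05) were higher and Rab4a (-1.53) and Rab5a (-1.40) lower, with a median of -0.40. The Rab11fip5 call was lost without microglia library 3 or 4. Rab4a, which encodes an early recycling GTPase, had 9.36 to 25.5 TPM in microglia, 35.1 to 64.9 TPM in astrocytes and 35.5 to 60.1 TPM in neuron-labelled libraries, with no overlap between microglia and the others. For astrocytes minus neuron-labelled libraries Rab5a (1.24) was higher and B2m, Rab11fip1 (-1.22) and Exoc6 (-1.0) lower. With 1 library left out at a time, the lower calls of this list numbered 2 to 4 in that comparison. They numbered 2 to 3 for microglia minus neuron-labelled libraries.

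**Figure D5:**
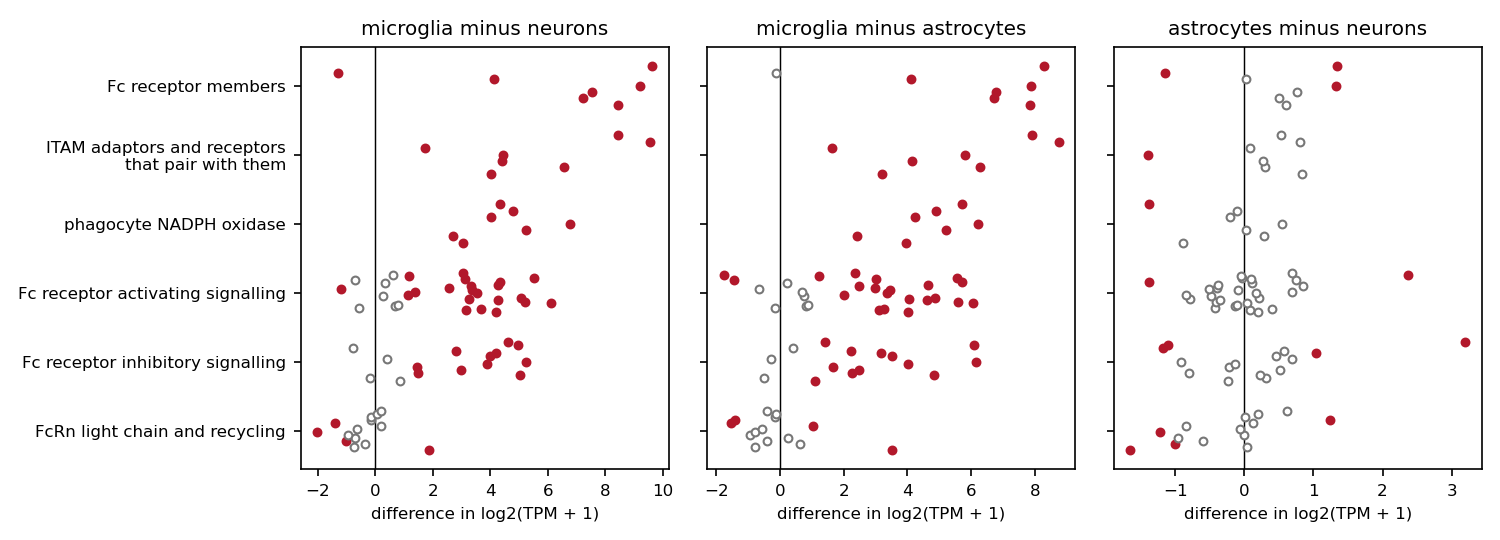
Difference in log2(TPM + 1) of every tested gene of the 7 members and of 5 pathway lists in the 3 comparisons, where neurons are the neuron-labelled libraries, with filled points for called genes and open points for the others. The activating, inhibitory, adaptor and oxidase lists have medians of 2.27 to 5.82 in the comparisons of microglia. These medians include genes that could be tested only because they were high in microglia. The FcRn recycling list has medians of -0.49 and -0.40.

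Of 20 further Fc family and ligand genes, 3 were tested. Fcrl1, an Fc receptor-like gene known from B cells that passed the filter only through microglia, averaged 36.1 ± 9.77 TPM in microglia and was higher by 4.95 against neuron-labelled libraries and by 5.09 against astrocytes. Fcmr, which encodes a receptor for immunoglobulin M, was lower in microglia than in neuron-labelled libraries at -1.16 (limma, adjusted p = 0.0042), and that call was lost without neuron-labelled library 1 or 4. Its levels were low and overlapped, at 0 to 0.78 TPM in microglia and 0.31 to 3.92 TPM in neuron-labelled libraries. Trim21, which encodes a receptor for antibody in the cytosol, averaged 5.95 ± 2.07 TPM in microglia, 4.05 ± 1.29 TPM in astrocytes and 5.88 ± 1.78 TPM in neuron-labelled libraries and was not called. Of the listed genes, 6 immunoglobulin genes were not used here.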

How the data were processed

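PolyA RNA of 15 libraries was sequenced as paired reads of 150 bases, per the labels' protocols. The authors deposited TPM per gene, with columns that each sum to 1000000, and mm10, RSEM 1.2.28, STAR 2.7.1a, DESeq2 1.36.0 and Trim Galore 0.6.4 were used per the submitters' processing notes; the annotation is not given in the sources used here. TPM keeps no depth, so no counting interval could be given. RSEM estimates how reads shared between genes are divided, which touches Fcgr2b and Fcgr3. All columns were used and no 2 libraries were identical. limma 3.58.1 (R 4.3.3; 1 mean per cell type, variance trend) was run on log2(TPM + 1) over the 13351 genes that reached 1 TPM in 5 or more libraries. Benjamini-Hochberg p-values were adjusted over all of them, and a call needed an adjusted p below 0.05 and a log2 difference of at least 1. The procedure was tested on simulated data. Values, sequences and figures were computed with Python 3.11.15, numpy 2.4.6, pandas 2.3.3 and matplotlib 3.10.9. Likeness of pattern was Pearson correlation over 15 libraries. Shared sequence was read, for each gene, from the longest transcript that has a coding sequence in GENCODE vM21. Named genes were the 7 members, the 3 genes most like each, B2m, Tyrobp, Syk, Inpp5d and Ptpn6, and of each list up to 4 called genes of largest difference and any called gene against the list's majority, of which some are printed. Members and lists were chosen with earlier results of these data known. Same-numbered microglia and neuron-labelled libraries deviated together from their group means (r of 0.216 to 0.382 over the 5 numbers), while the microglia and astrocyte libraries (-0.011 to 0.249) and the astrocyte and neuron-labelled libraries (-0.0329 to 0.233) did not do so for every number. The pairing comes from the numbers in the labels alone. Alternatives covered pseudocount, filter, scaling, samples in the fit, variance trend, weights, replicate block and left-out libraries.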

Additional observations from a re-analysis of the deposited data

Results flagged for a closer look

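In 48 groups of 5 values, the highest or lowest library stood far from the other 4 in 3 groups, where chance gives about 1 in 20. Fcgr1 was at 1.01 TPM in neuron-labelled library 2, against 0.11 to 0.34 TPM in the other 4. Fcgr2b was 10.4% of the 4 Fcgr genes in microglia library 5, against 12.2 to 12.8% in the others. The same library gave the lowest ratio of Fcgr2b to the sum of Fcgr1, Fcgr3 and Fcgr4, at 0.115 against 0.139 to 0.147, which rests on the same values.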

How the results depend on the processing

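Over 27 alternatives, the 6 members higher in microglia kept their calls against both other groups. Of these, Fcgr1 and Fcgr4 passed the main filter only through the microglia libraries. With the replicate block the members called were again 6 higher and 1 lower against neuron-labelled libraries, and no call of a member changed in any comparison. Among the list genes, Ptpn6 in astrocytes minus neuron-labelled libraries lost its call under the block (adjusted p = 0.0612). With a pseudocount of 0.1, 4 members were higher in astrocytes than in neuron-labelled libraries in place of 2. The member called lower in microglia than in neuron-labelled libraries, Fcgrt, was lost under median-of-ratios scaling and quantile normalization, leaving 0 in place of 1. Over all tested genes, microglia against neuron-labelled libraries gave 1300 higher and 3945 lower. Median-of-ratios scaling gave 2104 higher, and quantile normalization 1952 higher and 2447 lower. Microglia against astrocytes gave 1359 higher and 4313 lower, 2283 and 2618 under median-of-ratios scaling, and 2048 and 2471 under quantile normalization. Without all libraries numbered 3 and 4, Fcgrt in astrocytes minus neuron-labelled libraries was -0.97 (adjusted p = 0.000311), leaving 0 members lower in place of 1. Fcgrt in microglia minus astrocytes changed sign to 0.55, 0.17 and 0.059 under median-of-ratios scaling, quantile normalization and without microglia libraries 1 and 2. Fcgr4 in astrocytes minus neuron-labelled libraries changed sign to -0.038 with a pseudocount of 0.1 and -0.0035 under median-of-ratios scaling. Leaving out 1 library at a time gave -0.083 to 0.13, with the values -0.083, -0.059, -0.041 and -0.020 without astrocyte library 4 or 5 or neuron-labelled library 1 or 5. Median-of-ratios scaling moved the median of all tested genes by 0.51 and quantile normalization by 0.45 for microglia minus neuron-labelled libraries, and by 0.54 and 0.52 for microglia minus astrocytes. The cause of the changes under these alternatives was not tested. With TPM alone, levels near 1 TPM have no known counting error.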
